A study of Mus musculus with 2 samples.

Results

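The planar cell polarity genes described here are Vangl1, Vangl2, Celsr1, Celsr2, Celsr3, Prickle1, Prickle2, Fat4, Dchs1 and Scrib, 10 of the 43346 genes in the deposited tables, chosen by name from the pathway and not by their level. They were measured by total RNA sequencing of whole intestine from B6NCrl mouse embryos at embryonic day 14.5, in 2 libraries that form the only group. According to the labels each library came from 1 intestine, taken on day 17 of a month for replicate 1 and on day 15 of that month for replicate 2. The sex was given as pooled, and donor record, pup number and number of the pregnant mouse were the same for both. No genotype other than the strain and no treatment were given. With 1 group there was no contrast to test, and the SD of each value below is the spread between these 2 libraries. The labels do not settle whether these are 2 embryos, so that spread may not be one between embryos. The libraries also differed in pancreas transcripts, as given below, and any difference between embryos cannot be told apart from collection date.

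Planar cell polarity is the alignment of cells within the plane of a tissue. At cell borders, complexes that hold Vangl and Prickle proteins face complexes that hold Frizzled and Dishevelled in the neighbouring cell, and Celsr cadherins bridge the gap between the cells, while the very large cadherins Fat4 and Dchs1 form a second, partly separate system. Noncanonical Wnt ligands such as Wnt5a act upstream, and in the mouse embryo Wnt5a is known to be needed for the gut to elongate.

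The libraries held 32938592 (replicate 1) and 32371363 (replicate 2) estimated counts in genes. Markers of the labelled tissue were present, with all 8 epithelial, all 7 mesenchymal, all 6 smooth muscle and all 8 enteric neuron markers at 1 or more TPM (a transcript's share of all transcripts in the library, corrected for length) in both. The libraries differed in markers of a neighbouring organ, since 8 pancreas markers summed to 3.72 TPM in replicate 1 and 1084 TPM in replicate 2, with Ctrb1, Ins2, Amy2a5, Ptf1a and Cela2a listed at 0 in replicate 1. Replicate 2 thus held transcripts of pancreas genes that replicate 1 nearly lacked, and the levels of the 10 genes are given below for each library.

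All of the 10 genes except Celsr1 were detected, which here means TPM of at least 1 in both libraries, so that 9 of 10 passed a rule that 34.2% of all genes and 61.3% of protein-coding genes passed. The median of their mean levels was 11.3 TPM, between the 4.90 TPM of all protein-coding genes and the 18.4 TPM of the detected ones. From the lowest to the highest the means spanned 24.5-fold. In whole intestine, fewer cells of a type and less RNA per cell cannot be told apart.

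**Figure D1:**
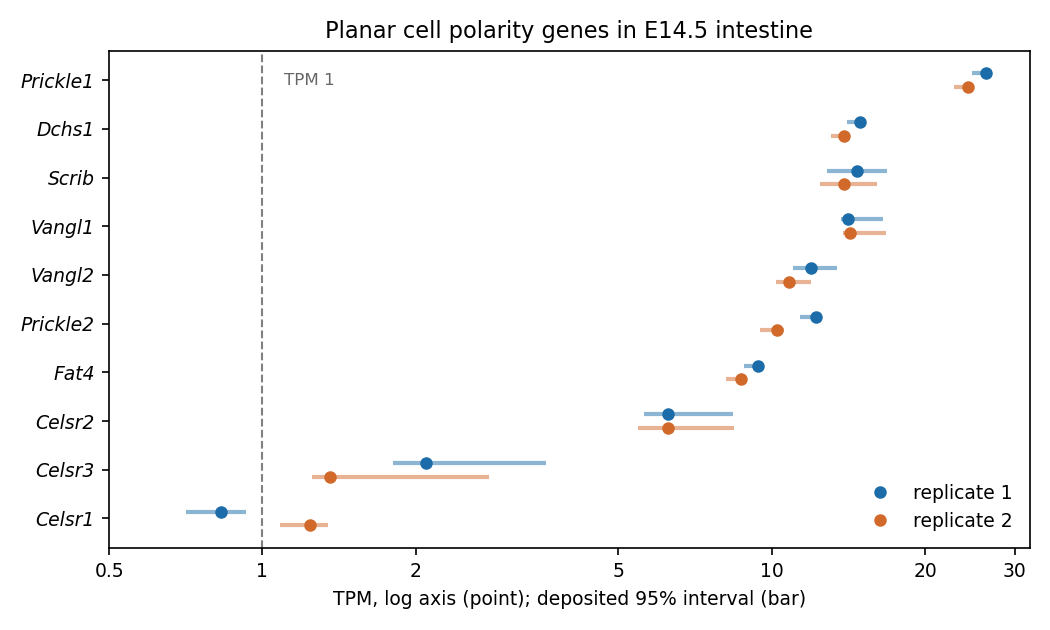
TPM on a log axis for each of the 10 genes, with a point for each library and a bar for its deposited 95% interval. Prickle1 is highest at 26.4 and 24.3 TPM, and Celsr1 is the single gene with a point to the left of the dashed line at TPM 1.

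Vangl1 and Vangl2 encode the multipass membrane proteins at the centre of one of the opposed complexes. Their coding ends are shown because the last codons of Vangl genes encode the short tail that PDZ domain proteins such as Scribble bind. A further reason is that the Vangl1 transcript that took nearly all of the gene's level ends differently in GENCODE M21. Each line gives the last 60 coding bases before the stop codon, 5′ to 3′ on the coding strand, from GRCm38 with GENCODE M21 transcripts, and the capitals mark the last 4 codons.
Vangl2-201: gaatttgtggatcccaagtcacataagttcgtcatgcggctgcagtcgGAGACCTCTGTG
Vangl1-201: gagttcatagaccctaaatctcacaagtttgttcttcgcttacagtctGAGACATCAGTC
Vangl1-202: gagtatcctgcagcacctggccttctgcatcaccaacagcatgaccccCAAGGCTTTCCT
The ends of Vangl2-201 and Vangl1-201 had the same base at 40 of the 60 positions. Vangl1-201 and Vangl1-202 had the same base at 15 of the 60, since the GENCODE M21 model of Vangl1-202 has shortened late exons and is read there in another frame. The model of Vangl1-202 that the authors quantified had another length, given below, so whether it has this end is not shown.

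Vangl1 (chromosome 3, 102153583 to 102204693 on GRCm38, minus strand) was at 14.09 TPM in replicate 1 and 14.22 TPM in replicate 2. Its mean of 14.2 ± 0.0919 (SD, n = 2) was the closest agreement between libraries among the 10 genes after Celsr2, on 1050 and 1071 counts. Transcript Vangl1-202, of 393 codons in GENCODE M21, held 96.4% and 95.8% of the gene's TPM. Vangl1-201, of 526 codons, was listed at 0 in replicate 1 and at 0.79% in replicate 2, on 4.35 counts. The 2 models share coding sequence, as all 1179 coding bases of Vangl1-202 lie within coding exons of Vangl1-201 in GENCODE M21. The deposited length of Vangl1-202 was 3413 bases against 3207 bases in GENCODE M21, so its codons and coding end may differ in the quantified model. Vangl1-201 had a deposited length of 1744 bases against 6531 bases in GENCODE M21. The part of that shorter Vangl1-201 model in the split of reads between the transcripts was not tested.

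Vangl2, mutated in the looptail mouse, whose neural tube fails to close, lies on chromosome 1 (172000960 to 172028444, minus strand). It was at 11.94 TPM in replicate 1 and 10.83 TPM in replicate 2, a mean of 11.4 ± 0.785 on 1372 and 1362 counts. Vangl1 was above Vangl2 in both libraries, 1.18-fold and 1.31-fold, and their deposited intervals did not overlap in either. Vangl2-201, of 521 codons, held 86.3% and 94.5% of the gene's TPM, and most of the rest was on short partial models.

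The Celsr genes encode multipass cadherins related to Drosophila Flamingo, which bind each other across cell borders. They formed the lowest family, with summed levels of 9.18 and 8.86 TPM for 3 genes. Celsr2 (chromosome 3, 108390851 to 108415552) was the highest, at 6.26 TPM in both libraries on 636 counts in each. Celsr3 (chromosome 9, 108826320 to 108852969), best known from axon guidance in the nervous system, was at 2.09 TPM in replicate 1 and 1.36 TPM in replicate 2, a mean of 1.73 ± 0.516. Celsr1 (chromosome 15, 85898929 to 86033777), the member known from alignment of skin hairs and closure of the neural tube, was at 0.83 TPM in replicate 1 and 1.24 TPM in replicate 2, a mean of 1.035 ± 0.290. Celsr2 stood above Celsr3 with intervals apart in both libraries, while Celsr3 and Celsr1 were not separated.

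Much of the level given for Celsr2 and Celsr3 came from short models with few counts. The full-length transcript Celsr2-201, of 2919 codons, held 73.2% and 78.7% of the gene's counts but 30.5% and 32.4% of its TPM. Celsr2-206, a partial coding model, held 28.05% and 20.8% of TPM. Celsr2-205, a non-coding model of 467 bases, went from 11.9% to 31.0% of TPM on 6.35 and 16.79 counts. For Celsr3 the full-length Celsr3-201, of 3301 codons, held 91.4% and 95.2% of counts and 38.1% and 54.5% of TPM, and the partial model Celsr3-202 of 722 bases held 17.8% and 23.6% of TPM on 5.40 and 4.72 counts. A short model turns a few counts into many TPM, so the gene's TPM and its counts can part. Celsr1 has a single annotated transcript, of 3034 codons, and 212 and 320 counts gave it the levels above.

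The Prickle genes encode cytoplasmic proteins with LIM domains that bind Vangl proteins. Prickle1 (chromosome 15, 93499114 to 93595891) was the highest of the 10 genes, at 26.36 TPM in replicate 1 and 24.30 TPM in replicate 2, a mean of 25.3 ± 1.46 on 2444 and 2280 counts. Prickle2 (chromosome 6, 92370908 to 92706155) was at 12.19 TPM in replicate 1 and 10.24 TPM in replicate 2, a mean of 11.2 ± 1.38. Prickle1 was therefore 2.16-fold and 2.37-fold above Prickle2, and no other gene's interval reached that of Prickle1. Both genes were somewhat lower in replicate 2.

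The transcripts of both Prickle genes start at different places. For each transcript that held a share of the reads, the 250 bases before the nearest RefSeq start are shown (GRCm38.p6, minus strand, 5′ to 3′, capitals marking CpG dinucleotides). The window ended 11 bases from the GENCODE start for Prickle1-201, 3 for Prickle1-202 and 29 for Prickle2-201. For Prickle2-202 and Prickle2-203 it ended at that start. The windows are chr15:93595903-93596152 for Prickle1-201, chr15:93519521-93519770 for Prickle1-202, chr6:92534862-92535111 for Prickle2-203, chr6:92481393-92481642 for Prickle2-202 and chr6:92706185-92706434 for Prickle2-201.
Prickle1-201: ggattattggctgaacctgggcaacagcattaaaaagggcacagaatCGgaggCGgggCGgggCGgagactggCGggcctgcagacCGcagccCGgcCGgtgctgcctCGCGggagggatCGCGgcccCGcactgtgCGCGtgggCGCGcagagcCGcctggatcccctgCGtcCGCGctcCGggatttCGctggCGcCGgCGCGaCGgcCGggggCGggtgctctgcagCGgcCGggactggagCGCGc
Prickle1-202: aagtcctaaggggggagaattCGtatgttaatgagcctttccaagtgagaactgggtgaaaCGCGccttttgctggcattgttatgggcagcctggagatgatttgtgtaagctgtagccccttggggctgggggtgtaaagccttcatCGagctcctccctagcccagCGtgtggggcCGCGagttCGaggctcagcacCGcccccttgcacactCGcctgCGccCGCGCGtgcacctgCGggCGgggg
Prickle2-203: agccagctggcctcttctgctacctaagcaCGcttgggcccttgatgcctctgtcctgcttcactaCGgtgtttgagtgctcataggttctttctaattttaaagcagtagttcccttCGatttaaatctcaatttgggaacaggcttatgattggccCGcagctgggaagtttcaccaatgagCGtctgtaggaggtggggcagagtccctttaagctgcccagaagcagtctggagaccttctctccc
Prickle2-202: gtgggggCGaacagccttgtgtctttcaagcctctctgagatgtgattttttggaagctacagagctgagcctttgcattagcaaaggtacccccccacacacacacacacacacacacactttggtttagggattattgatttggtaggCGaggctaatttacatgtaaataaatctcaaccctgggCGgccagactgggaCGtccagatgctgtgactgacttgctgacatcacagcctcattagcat
Prickle2-201: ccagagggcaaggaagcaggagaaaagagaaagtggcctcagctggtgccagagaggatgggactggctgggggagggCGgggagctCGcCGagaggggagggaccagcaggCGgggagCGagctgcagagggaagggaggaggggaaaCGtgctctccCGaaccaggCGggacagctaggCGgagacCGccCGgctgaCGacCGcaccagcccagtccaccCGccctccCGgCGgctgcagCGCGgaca
The leading starts of the 2 genes differ in base composition. The window of Prickle1-201 held 34 CpG and 74% G or C, with a CpG ratio of observed to expected of 1.02 that exceeded 94.9% of 32851 such windows in the RefSeq table. The window of Prickle2-203 held 5 CpG, near the median of 6 per window. Prickle1-202 had 16, Prickle2-201 had 18 and Prickle2-202 had 4. Searched on both strands, the GC box letters GGGCGG (in 32.7% of all windows) occurred 3 times before Prickle1-201, 2 times before Prickle1-202, 3 times before Prickle2-201, 1 time before Prickle2-202 and 0 times before Prickle2-203. The letters CCAAT (in 33.8% of all windows) occurred 2 times before Prickle2-203, 1 time before Prickle1-201 and 0 times before the other 3. The letters TATAAA, in 12.4% of all windows, were in none of the 5. These matches describe the letters only.

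Prickle1-201 held 89.1% and 85.6% of Prickle1 TPM (2174 and 1947 counts), and Prickle1-202 held 10.9% and 14.4%. Both encode the same 2496 coding bases, so the choice of start leaves the annotated protein the same. In Prickle2 the shares were more even, with 65.1% and 55.2% for Prickle2-203, 22.4% and 24.3% for Prickle2-202 and 12.6% and 20.5% for Prickle2-201, while Prickle2-204 was listed at 0 in both libraries. Prickle2-202 also ends elsewhere, at 92375384 against 92370910 for Prickle2-203, and is 3708 bases long against 7860, so its share is not one of starts alone. Prickle2-201 was the Prickle2 transcript with more counts in replicate 2, at 272.36 against 377.60, while Prickle2-203 went from 1430 to 1031. It encodes 901 codons against 845 for the others, and the 56 additional codons at its start are shown here because they are what the choice of start adds to the protein, with capitals marking its own start codon and the one that begins the shared part.
Prickle2-201: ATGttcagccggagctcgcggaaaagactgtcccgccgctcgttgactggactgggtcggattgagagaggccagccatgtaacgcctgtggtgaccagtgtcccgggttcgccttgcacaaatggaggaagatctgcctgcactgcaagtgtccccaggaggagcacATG

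Fat4 and Dchs1 encode very large cadherins that bind each other between neighbouring cells. Dchs1 (chromosome 7, 105752990 to 105787654) was at 14.89 TPM in replicate 1 and 13.85 TPM in replicate 2, a mean of 14.4 ± 0.735 on 3552 and 3359 counts. Fat4 (chromosome 3, 38886940 to 39011985) was at 9.40 TPM in replicate 1 and 8.70 TPM in replicate 2, a mean of 9.05 ± 0.495 on 3286 and 3029 counts. Dchs1 was thus 1.58-fold and 1.59-fold above Fat4, nearly the same ratio in both libraries. For both genes the long transcript held most of the level, as Fat4-201 (4981 codons) held 92.7% and 91.0% of TPM and Dchs1-201 (3291 codons) held 91.8% and 92.3%. An antisense gene that overlaps the start of Fat4, C230034O21Rik, was at 1.1 and 1.04 TPM, and whether strand was used in counting is not given in the sources used here, so reads of the 2 genes may not be separate where they overlap.

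Scrib (chromosome 15, 76047158 to 76069784) encodes a scaffold with leucine-rich repeats and PDZ domains that acts in apical-basal polarity with Dlg and Lgl proteins and binds Vangl2. It was at 14.71 TPM in replicate 1 and 13.88 TPM in replicate 2, a mean of 14.3 ± 0.587 on 1048 and 1157 counts. Its leading transcript was annotated as non-coding. Scrib-204, a processed transcript of 22 exons and 3071 bases, held 64.4% and 58.1% of TPM and 653 and 563 counts. The coding transcript Scrib-202, of 36 exons and 1612 codons, held 18.9% and 28.9% of TPM, and the partial Scrib-205 held 14.95% and 8.41%. All 3071 bases of Scrib-204 lie in exons of the coding transcript Scrib-201, so none of its bases lies outside the exons of coding transcripts. Of these bases, 2987 lie in exons of Scrib-202, beginning after the first 14 of its 36 exons. Scrib was the single member whose leading transcript had no protein-coding type, as found for 7.11% of 9521 detected protein-coding genes with over 1 transcript.

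In order of mean level the genes ran Celsr1, Celsr3, Celsr2, Fat4, Prickle2, Vangl2, Vangl1, Scrib, Dchs1 and Prickle1. Of the 9 neighbouring pairs in this order, 4 were separated, which here means the same order and deposited 95% intervals apart in both libraries. These were Celsr3 below Celsr2, Fat4 below Prickle2, Vangl2 below Vangl1, and Dchs1 below Prickle1. The other 5 pairs were not separated, among them Vangl1 with Scrib and Scrib with Dchs1, 3 genes that all lay between 13.85 and 14.89 TPM.

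None of the 8 genes whose mean reached 5 TPM differed between the libraries, by a rule that asked for a log2(TPM + 1) difference of at least 1 and deposited intervals apart. The same rule called 0.495% of 11324 genes, 56 in number. Celsr1 and Celsr3 were below that level and were not tested by it. Differences of the 10 genes (replicate 2 minus replicate 1, on the log2(TPM + 1) scale) ran from −0.39 for Celsr3 to 0.29 for Celsr1. Their median was −0.10, against −0.05 for all genes whose mean reached 5 TPM, a set without Celsr1 and Celsr3. In TPM, 7 of the 10 were lower in replicate 2, 2 were higher and 1 was equal, beside 62.7% of those genes lower. The 2 higher genes were Celsr1 and Vangl1. Celsr2 joined them after TMM or DESeq2 scaling, while after scaling to spike-ins 9 of 10 were lower and Celsr1 alone was higher. In counts as a share of each library's total, 5 were higher and 5 lower.

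**Figure D2:**
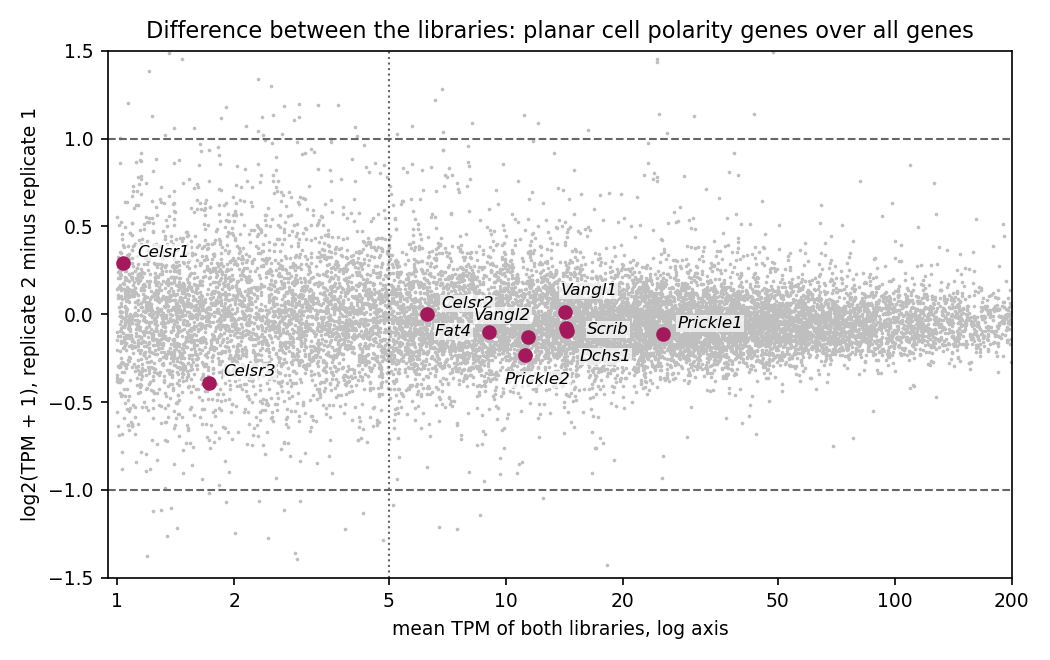
Difference between the libraries on the log2(TPM + 1) scale against mean TPM on a log axis, with all genes in grey (those outside the axes are not drawn) and the 10 genes in red. Dashed lines mark a difference of 1 in either direction and the dotted line a mean TPM of 5, and the 10 genes lie between −0.39 and 0.29.

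The deposited intervals themselves did not overlap between the libraries for 3 of the 10 genes, beside 21% of genes whose mean reached 1 TPM. For Celsr1 the interval was 0.707 to 0.926 in replicate 1 and 1.08 to 1.35 in replicate 2. For Prickle2 it was 11.3 to 12.5 and then 9.50 to 10.6, and for Prickle1 the intervals of 24.7 to 26.8 and 22.8 to 24.7 nearly met. For Celsr1, Celsr3, Prickle2 and, by little, Vangl2 the difference in level was larger than that of the median gene at the same level. All of these lay within the range that held 95% of such genes. For Celsr1 and Celsr3, differences of 0.29 and −0.39 compare with a median absolute difference of 0.19 over 4087 genes with mean TPM from 1 to 5, of which 95% lay within 0.96. For Prickle2 and Vangl2, −0.23 and −0.13 compare with 0.12 over 8166 genes from 5 to 50, of which 95% lay within 0.41. The −0.11 of Prickle1 was below that median in size.

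Ratios of a gene's count share between the libraries, which do not use the estimated transcript length, parted most from TPM for Celsr3 and Scrib. The share of Celsr1 in replicate 2 was 1.54 times that in replicate 1 (exact 95% interval 1.29 to 1.84), and that of Prickle2 was 0.853 times (0.798 to 0.912). Such intervals cover counting error only. The TPM of Celsr3 was 0.651 times as high in replicate 2, whereas its count share was 0.921 times as high (0.761 to 1.11). The TPM of Scrib was 0.944 times as high, whereas its count share was 1.12 times as high (1.03 to 1.22). These were the 2 of 10 genes whose effective length, the mean length over which the counts are spread, changed at least 1.1-fold between libraries, from 4776 to 6560 bases for Celsr3 and from 3068 to 3548 bases for Scrib. The same held for 8.16% of 14806 detected genes.

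Markers of cell types moved as follows between the libraries. Replicate 2 had 1.08 times the summed TPM of the epithelial markers, with 7 of 8 higher and Epcam at 517 and 505 TPM, and 1.45 times that of the erythroid markers, with all 5 higher and Hba-a2 at 4152 and 5929 TPM. Its sum was 0.945 times as high for mesenchyme, with 3 markers higher and 4 lower (Col3a1 at 1673 and 1496 TPM). For smooth muscle it was 0.936 times as high, with 1 higher and 5 lower (Acta2 at 1633 and 1478 TPM). For enteric neurons it was 0.930 times as high, with 2 higher and 6 lower (Uchl1 at 84.1 and 77.9 TPM). For glia it was 0.964 times as high, with 1 higher and 5 lower (Fabp7 at 47.2 and 45.7 TPM, S100b at 0.96 and 1.14 TPM, Gfap at 0.46 and 0.22 TPM). For mesothelium the sum was 0.999 times as high, with 2 markers higher and 3 lower (Krt7 at 78.6 and 81.7 TPM). For endothelium it was 0.987 times as high, with 2 higher and 3 lower (Egfl7 at 102 and 106 TPM). For macrophages it was 1.05 times as high, with 4 higher and 1 lower (Lyz2 at 49.8 and 56.8 TPM). The pancreas markers were led by Pnliprp1, at 1.67 and 355 TPM, and all 6 of them whose mean reached 5 TPM met the rule for a difference that none of the 8 polarity genes met. The part of these markers in the higher Celsr1 and lower Prickle2 of replicate 2 was not tested.

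All of the 9 genes with over 1 transcript had the same leading transcript in both libraries, as did 90.8% of 10031 detected genes with over 1 transcript. The tables held 46 transcripts of the 10 genes, of which 7 were at 0 TPM in both libraries. When only the 20 transcripts that GENCODE M21 tags as basic, its set of well-supported models, were summed, 8 of the 10 genes were detected and 3 genes changed most. Scrib went from a mean of 14.3 to 3.85 TPM (3.04 in replicate 1 and 4.65 in replicate 2), Celsr2 from 6.26 to 1.97 TPM (1.91 in replicate 1 and 2.03 in replicate 2) and Celsr3 from 1.73 to 0.77 TPM (0.80 and 0.74). Scrib thereby moved from among the highest 3 of the genes to below Fat4, and Celsr3 moved below Celsr1. In replicates 1 and 2 the basic transcripts of Scrib held 20.7% and 33.5% of its TPM and 36.1% and 50.6% of its counts. For Prickle1, Prickle2 and Celsr1 nearly all or all of the level came from basic transcripts. This sum was chosen after the values had been seen. It adds deposited TPM and does not reassign the reads of other transcripts. The reads of Scrib-204 were thus left out, although all its 3071 bases lie in exons of the basic transcript Scrib-201.

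**Figure D3:**
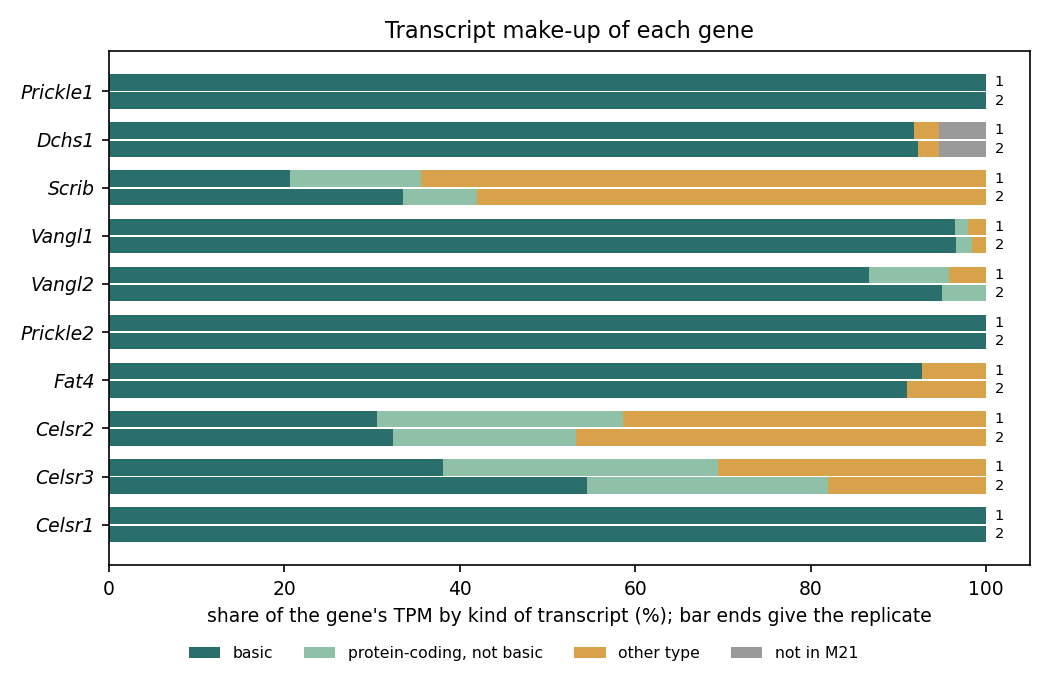
Percent of each gene's TPM by kind of transcript, with 1 bar per library. The basic share of Scrib is 20.7% and 33.5%, whereas the bars of Prickle1, Prickle2 and Celsr1 are filled by basic transcripts.

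**Figure D4:**
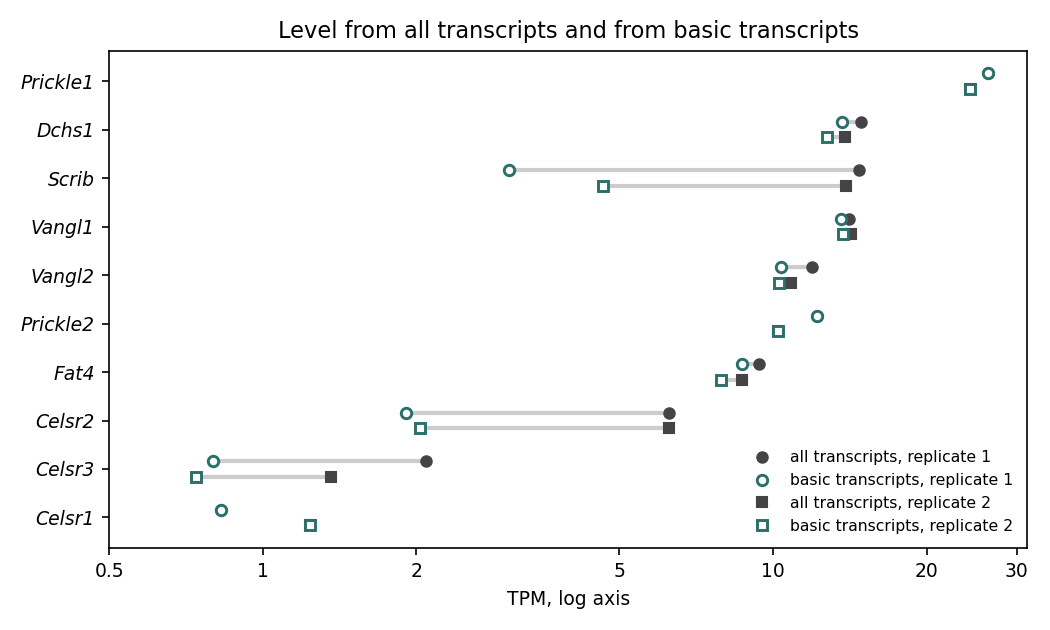
TPM on a log axis from all transcripts (filled) and from basic transcripts (open) of each gene, with a circle for replicate 1 and a square for replicate 2, joined within a library. The long lines are those of Scrib (14.7 to 3.04 and 13.9 to 4.65 TPM), Celsr2 and Celsr3.

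Other genes of the pathway were present alongside. Of 52 genes in 6 lists by role, 46 were detected and none of the 40 whose mean reached 5 TPM differed between libraries. Their median level was 11.9 TPM, beside 11.3 TPM for the 10 genes.

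Among the ligands, 4 of 6 were detected. Wnt5a was the highest at 39.38 TPM in replicate 1 and 28.96 TPM in replicate 2, and Wnt5b followed at 6.33 and 5.79 TPM. The lowest was Wnt9b at 0.06 and 0.02 TPM. All 10 receptors and coreceptors were detected, led by Ptk7, a receptor with an inactive kinase domain, at 44.28 and 41.92 TPM and by the Wnt receptor Ryk at 19.18 and 19.43 TPM. The lowest of them was the Frizzled receptor Fzd6 at 6.45 and 6.51 TPM, close to the level of Celsr2 when all transcripts of Celsr2 are summed.

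Of the cytoplasmic proteins and regulators 11 of 12 were detected. Gipc1, a PDZ protein of vesicle traffic, was the highest at 122.41 and 123.09 TPM. Sec24b, the coat protein that carries Vangl2 out of the endoplasmic reticulum, was next at 30.70 and 31.68 TPM, and Prickle4 was the lowest at 0.46 TPM in both, far below its relatives Prickle1 and Prickle2. The relatives of Fat4 and Dchs1 were the list with the smallest share detected, 2 of 5. Fat1 was at 28.29 and 29.28 TPM, above Fat4 in both libraries, the kinase gene Fjx1 was at 6.21 and 6.99 TPM, and Fat2 was at 0.06 and 0.05 TPM.

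All 10 effectors were detected, with the small GTPases Cdc42 at 554.64 and 494.98 TPM and Rac1 at 265.34 and 277.41 TPM as the highest and the cilium gene Intu at 3.48 and 2.75 TPM as the lowest. All 9 Scribble partners were also detected. Llgl2 was at 37.79 and 48.11 TPM and Llgl1 at 42.32 and 42.08 TPM, both above Scrib, and Dlg4 was the lowest at 5.13 and 4.15 TPM.

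**Figure D5:**
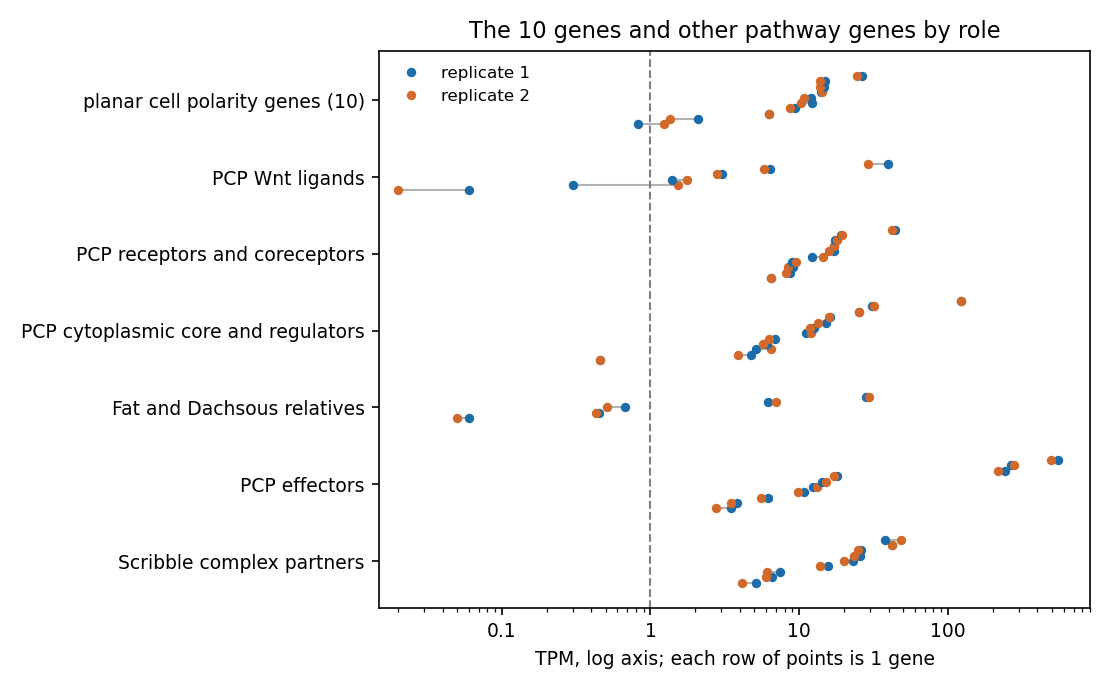
TPM on a log axis of the 10 genes and of the 52 other pathway genes by role, with each gene as a pair of points (1 per library) joined by a line. The dashed line marks TPM 1, and the wide pair among the Wnt ligands is Wnt7b at 0.30 and 1.52 TPM.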

How the data were processed

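Per the labels, the starting amount was 10 ng of RNA over 200 nucleotides for each library, Ambion mirVana was used for extraction, and the protocol linked is SmartSeq. Per the notes deposited with the files, the genome was mm10 and the annotation GENCODE M4. The quantification tool is not given in the sources used here. The authors deposited expected counts for genes and transcripts. The deposited TPM values are shares of everything quantified, of which spike-ins took 9.77% and 10.4%. The percent share of each transcript in its gene was deposited by the authors. The interval bounds of TPM, deposited by the authors and taken here as scores, surround a posterior mean. For 8 of the 10 genes the deposited posterior SD of the count was 0.

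Symbols, coordinates, transcript types and the basic tag came from GENCODE M21 on GRCm38, which matched 42462 of 43346 genes. Promoter windows came from RefSeq, where 6 of the 10 genes had one. The members, lists and rules were chosen with earlier results of these data known, and the sequences shown were chosen after values had been seen. The text names all 10 genes, the 2 highest and the lowest gene of each pathway list with any that differed, the highest gene of each marker list with those under 1 TPM where at most 2 exist, the leading transcript of each gene and transcripts with at least 10% in both libraries. Wnt7b, other pancreas markers and minor transcripts were named after their values were seen. No likeness to other genes was computed from 2 libraries.

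Differences used log2(TPM + 1). Count-share intervals were exact binomial ones at 95%. Alternatives were other detection limits, posterior means, a pseudocount of 0.1, rescaling over nuclear protein-coding genes, TMM (edgeR 4.0.16) and DESeq2 1.42.0 size factors on expected counts rounded to whole numbers, spike-in scaling, basic transcripts only (added after the data were seen) and each library alone. The rule for a difference was tested on simulated data, with planted changes above its cutoff and simulated intervals in place of the deposited ones. Changes near the cutoff were not part of that test.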

Additional observations from a re-analysis of the deposited data

How the results depend on the processing

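With each library alone, 9 to 10 of the 10 genes and 46 to 47 of the 52 other pathway genes were detected and 4 to 6 neighbouring pairs were separated. Over the other alternatives the detected number was 8 to 10 and 40 to 50. None of the genes that each of 8 alternatives to the difference rule covered differed between libraries. Celsr1 and Celsr3 were covered only by the alternative with no minimum on mean TPM. Over all genes these alternatives called 50 to 182. The rule needs both libraries, so it was not run on each alone. By posterior mean TPM, 8 of 9 genes kept 1 leading transcript, the exception being Celsr2, where Celsr2-205 led in replicate 2. Rescaling moved the mean of all 10 genes by more than their SD, basic transcripts that of 7 and posterior means that of 3. Rescaling multiplies all genes of a library by the same factor, so its count describes that factor and not the single genes. TMM and DESeq2 factors shifted replicate 2 by 0.05 (log2), and spike-ins by −0.10. No paired analysis was possible because the 2 libraries form a single group. The 3-count floor of the 10 genes had a median of 0.0266 and 0.0216 TPM.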
